A study of Mus musculus with 9 samples.

Results

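The RNA-seq libraries of T15 cells that re-expressed Smarcb1 (Smarcb1-RE) were set directly against those of T15 cells treated with SAHA. Members were the 3 Smarcb1-RE and the 3 SAHA columns of the deposited gene count table, 6 of its 9 libraries, and the 3 control libraries entered no test. Of 35288 listed genes, 13500 had enough counts in these 6 libraries to be tested. T15 is a Smarcb1-negative murine peripheral T-cell lymphoma (PTCL) line. Both treatment groups and the control group are T15 cells and therefore share this background. SAHA (vorinostat), an inhibitor of histone deacetylases, was given at 1 µM for 72 h, and the labels state repeated addition and a vehicle. Smarcb1-RE cells had received a Smarcb1 cDNA by lentivirus, were selected with G418 and were induced with doxycycline (Dox) at 0.5 µg/µl for 72 h. The cDNA is driven by a Dox-inducible promoter and was introduced into 1 cell line. The sources used here do not say whether the 3 Smarcb1-RE libraries came from a single clone, and for the control cells, which the study calls untreated, the labels do not tell whether they received the vehicle or the control plasmid. Transduction, selection, Dox, Smarcb1 and SAHA with its vehicle all differ between the groups compared and cannot be told apart in this contrast. The study reports that SAHA at this dose strongly induced apoptosis in T15 cells, leaving most of them dead. Smarcb1 re-expression slowed growth there, without an effect on viability or cell cycle. The part of cell death in the values below was not tested. The 3 libraries of a group are described as biological replicates of the same line, so p-values measure the spread between such cultures.

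SMARCB1 (also named INI1 or SNF5) is a core subunit of the SWI/SNF chromatin remodelling complexes, which move and evict nucleosomes at promoters and enhancers, and its loss is best known from rhabdoid tumours. In cells without it, Polycomb-mediated repression is known to go unopposed at many developmental genes. Histone deacetylases remove acetyl groups from histone tails and other proteins, and their inhibitors raise acetylation across chromatin, without targeting a particular gene.

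Library totals lay between 20900477 and 21911177 in Smarcb1-RE and between 23403494 and 24189992 in SAHA. All levels below are CPM, read counts relative to the effective library size after trimmed-mean (TMM) scaling, and 3 counts correspond to between 0.130 and 0.135 CPM in these 6 libraries, which covers counting error only. The first principal component took 93.3% of the variance among the 6 libraries. The common biological coefficient of variation was 3.55%, with 2.73% within Smarcb1-RE, 4.28% within SAHA and 7.52% within control. Transcripts of the mitochondrial genome made up 4.79 to 5.08% of counts in Smarcb1-RE, 3.37 to 3.76% in SAHA and 3.02 to 3.53% in control. Control levels are given for orientation on the same scale and were not tested.

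The treatments differed at most expressed genes, but by 2-fold or more at a minority of them. Of the 13500 genes tested, 10599 (78.5%) were called different at an adjusted p under 0.05 in edgeR's quasi-likelihood test after Benjamini-Hochberg adjustment over all of them. Smarcb1-RE had the higher level at 5372 of these (39.8%) and SAHA at 5227 (38.7%). A difference of at least 2-fold was called at 2666 genes (19.7%), with Smarcb1-RE higher at 1572 (11.6%) and SAHA at 1094 (8.10%). The CPM of the 2 groups did not overlap at 10885 genes (80.6%). The median absolute log2 fold change of all called genes was 0.60. Equally, 5939 genes (44.0%) lay within 1.5-fold, meaning that the 95% confidence interval of limma's log2 fold change was inside that limit, and 4033 of these were nonetheless called different. When libraries were scaled by their totals only, the all-gene median of the log2 fold change moved from 0.02 to 0.18 and the share of calls higher in Smarcb1-RE from 50.7% to 62.0%, so small directional differences below depend on the scaling.

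Differences of 2-fold or more were more frequent at low level, and the balance between the treatments turned with level. At the 2017 genes whose average log2 CPM was under 1, 29.3% were at least 2-fold higher in Smarcb1-RE and 15.3% in SAHA. At the 1748 genes whose average log2 CPM was 7 or more, 2.63% were at least 2-fold higher in Smarcb1-RE and 9.15% in SAHA. The count filter can be passed through the libraries of 1 group alone, which favours large differences among the lowest genes. The rise at low level therefore depends partly on the filter, and no conclusion is drawn from it. Of the genes at least 2-fold apart, 1359 of those higher in Smarcb1-RE and 1014 of those higher in SAHA were protein-coding. Differences of 16-fold or more were called at 81 genes higher in Smarcb1-RE and 48 genes higher in SAHA.

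**Figure D1:**
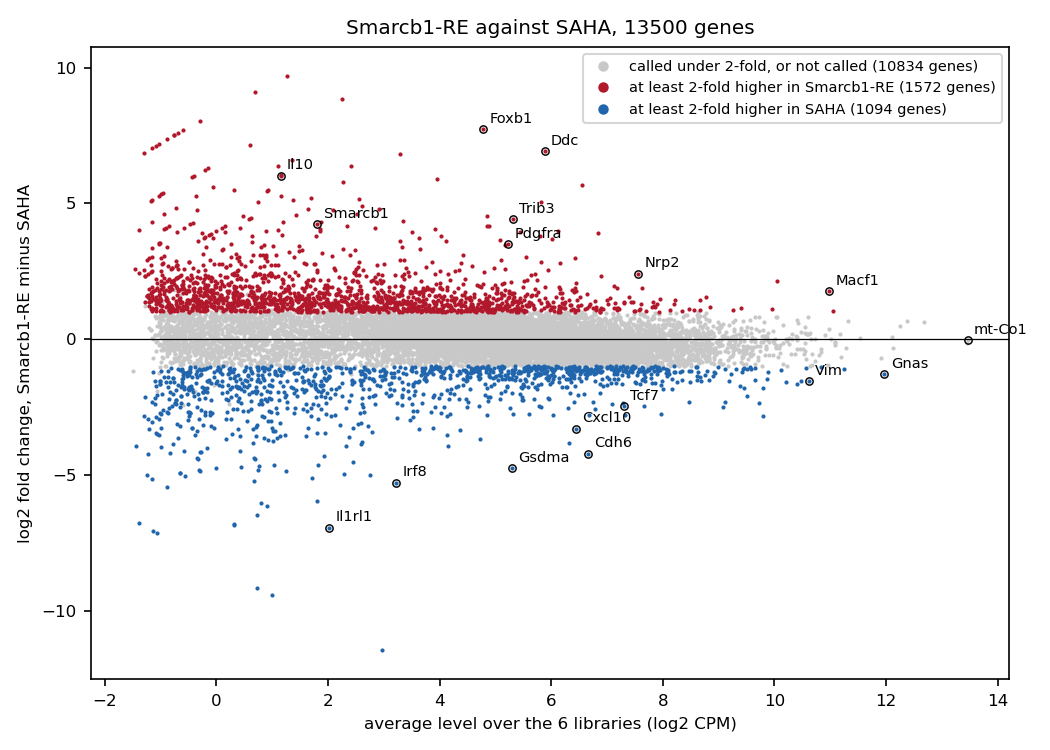
Average level of each tested gene over the 6 libraries (x axis, log2 CPM) against its log2 fold change, Smarcb1-RE minus SAHA (y axis), for 13500 genes. Red points are the 1572 genes called at least 2-fold higher in Smarcb1-RE and blue points the 1094 called at least 2-fold higher in SAHA, with red points denser at low level and blue points denser at high level.

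Smarcb1 itself (chr10:75896769-75921617, minus strand, GRCm38) served as the check of the labels. It was present at 6.56, 6.64 and 6.22 CPM in the Smarcb1-RE libraries and at 0.309, 0.587 and 0.131 CPM in the SAHA libraries. The groups did not overlap, and the control libraries, at 0.0862, 0.216 and 0.337 CPM, lay within or below the range of SAHA. The log2 fold change was 4.23 (SE 0.28, adjusted p = 3.30e-08). A two-sided exact permutation test over the 20 arrangements of the 6 libraries gave p = 0.1, the smallest it allows. Reads from the introduced cDNA and from the endogenous locus cannot be told apart in a count per gene.

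The genes with the largest differences in favour of Smarcb1-RE had few reads in SAHA. Foxb1, a forkhead transcription factor of the developing nervous system, was at 56.1, 52.4 and 54.6 CPM in Smarcb1-RE and at 0.133, 0.361 and 0.263 CPM in SAHA (log2 fold change 7.73, SE 0.12, adjusted p = 3.34e-13). Ddc, the decarboxylase that makes dopamine and serotonin, was at 112, 121 and 117 CPM against 1.15, 0.857 and 0.875 CPM (log2 fold change 6.91, SE 0.08, adjusted p = 6.93e-14). For both genes, the control libraries were as low as SAHA, at means of 0.427 CPM for Foxb1 and 0.757 CPM for Ddc. Il10, the anti-inflammatory cytokine, was at 3.69, 4.02 and 4.86 CPM in Smarcb1-RE, where 285 reads were counted in all, against 4 reads over the SAHA libraries, a ratio of 71.1 with a counting interval from 27.5 to 263. Fam196b had 634 reads in Smarcb1-RE and 1 in SAHA, a ratio of 632 whose interval reaches from 113 to 25000. The counting intervals of Lrp12, Sh2d1b1 (an adaptor of SLAM-family receptors), Stc2 (stanniocalcin, a secreted glycoprotein) and Dnm3 (a dynamin GTPase) had lower bounds of 37.2, 44.0, 31.2 and 27.6. Ccdc7b differed by a log2 fold change of 6.83 (SE 0.17). AC133103.7, AC133103.1 and AC125149.3 lie on unplaced scaffolds of GRCm38 and may share reads with near-identical copies, so their values are uncertain, and AC133103.7, with 0 counts in SAHA, was at least 33.9-fold higher in Smarcb1-RE when the floor of 3 counts per library is used.

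In the other direction, Il1rl1, Egr3 and Irf8 had the largest fitted differences among protein-coding genes whose average log2 CPM was 1 or more. Irf8, a transcription factor of lymphoid and myeloid differentiation, was at 0.348, 0.542 and 0.482 CPM in Smarcb1-RE and at 14.8, 19.8 and 19.6 CPM in SAHA (log2 fold change -5.29, SE 0.19, adjusted p = 2.15e-10), with a control mean of 3.05 CPM. Egr3, an immediate-early factor induced by T-cell receptor signals, was at 0.130, 0.181 and 0 CPM against 5.70, 6.68 and 7.84 CPM, with a control mean of 0.385 CPM. Its 7 reads in Smarcb1-RE against 456 in SAHA gave a ratio of 65.3 with a counting interval from 31.4 to 163 (adjusted p = 1.63e-08). SAHA thus stood above control as well as above Smarcb1-RE at these 2 genes. Il1rl1, the receptor for interleukin-33, had 534 reads in SAHA and 4 in Smarcb1-RE, a ratio of 134 with a counting interval from 52 to 493. Cdh6, a cadherin, was at 10.1, 10.2 and 10.5 CPM in Smarcb1-RE and at 203, 182 and 189 CPM in SAHA (log2 fold change -4.22, SE 0.05, adjusted p = 9.60e-14). Gsdma, a gasdermin, was at 2.56, 2.98 and 2.85 CPM against 66.3, 79.6 and 81.1 CPM (log2 fold change -4.76, SE 0.11). At Cdh6 and Gsdma, control means of 146 and 43.9 CPM were nearer to SAHA than to Smarcb1-RE. The remaining leaders were Gldc (glycine decarboxylase, log2 fold change -5.01), Tubb2b (a beta-tubulin, -4.96), Inka1 (an inhibitor of PAK kinase, -4.85), Evi2b (-4.62), Selenon (a selenoprotein of the endoplasmic reticulum, -4.62), Cd109 (a co-receptor of TGF-beta, -4.53) and Npnt (a matrix protein, -4.31).

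**Figure D2:**
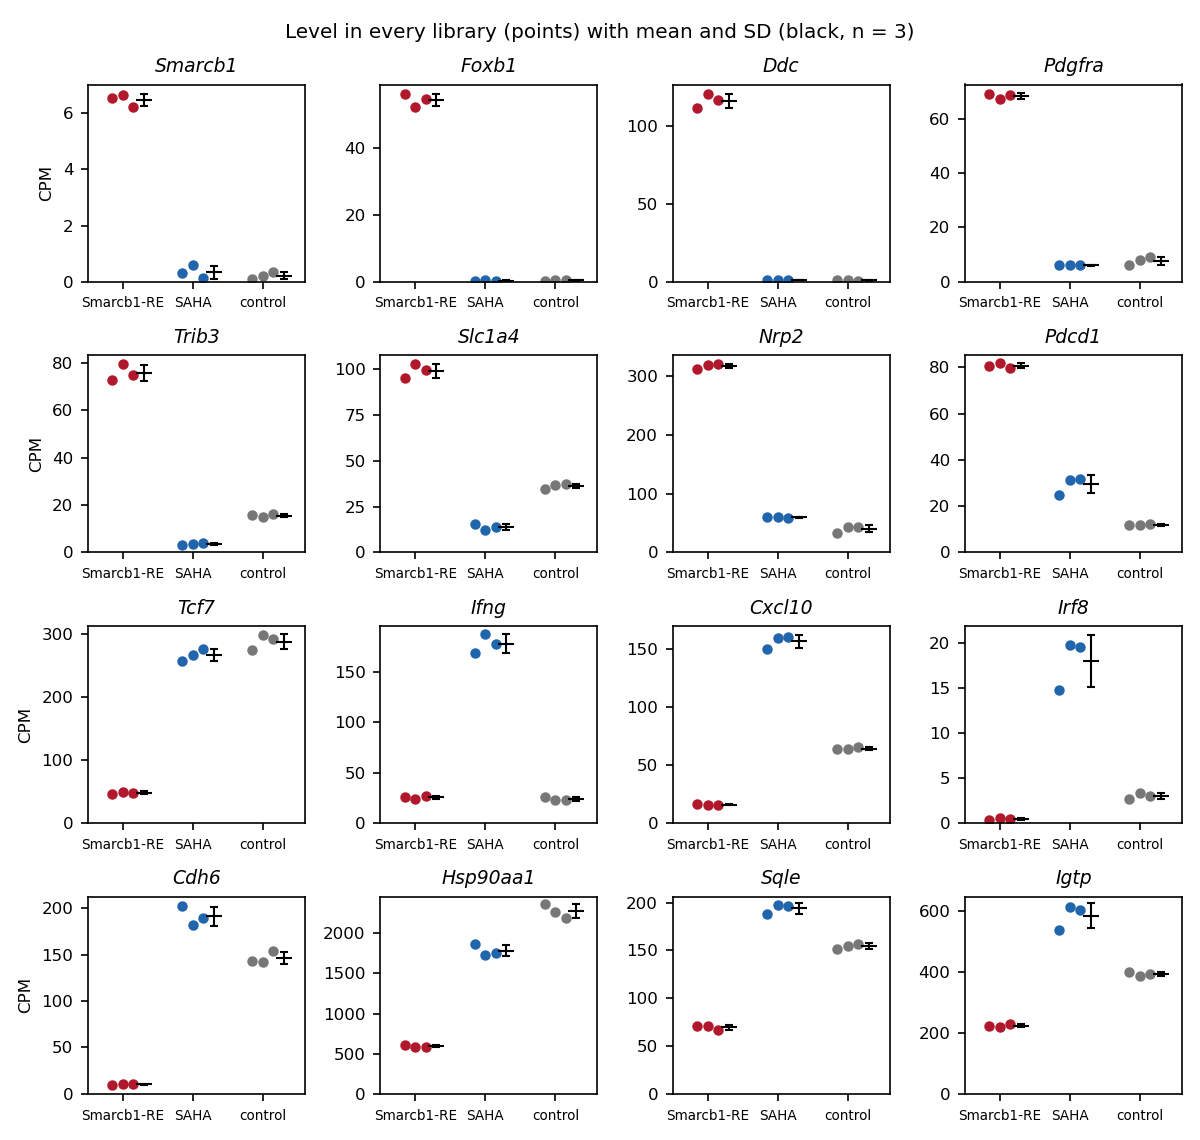
Level of 16 genes in each library (y axis, CPM, starting at 0; points, n = 3 per group) with the mean and SD in black, for Smarcb1-RE (red), SAHA (blue) and control (grey, not tested). The Smarcb1-RE and SAHA points do not overlap at any of the 16 genes, while the control points lie beside SAHA at some (Foxb1, Ddc, Tcf7), beside Smarcb1-RE at others (Ifng) and between them at Trib3, Slc1a4, Cxcl10 and Igtp.

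Among abundant genes, cytoskeletal and chaperone transcripts separated the treatments. The most abundant protein-coding genes at least 2-fold higher in Smarcb1-RE included Ahnak (a giant scaffold protein, log2 fold change 1.03), Macf1 (a linker of microtubules and actin, 1.78), Lars2 (mitochondrial leucyl-tRNA synthetase, 2.13), the class I molecule H2-Q6 (1.1, a gene with close copies) and Nsmaf (an adaptor of the TNF receptor, 1.09). Macf1 stood at 3107, 3140 and 3133 CPM in Smarcb1-RE against 990, 814 and 928 CPM in SAHA. Lars2 spread widely within Smarcb1-RE, at 1553, 2177 and 1431 CPM against 426, 386 and 369 CPM. The most abundant genes at least 2-fold higher in SAHA included Gnas (the stimulatory G protein alpha subunit, -1.29), Hsp90ab1 (-1.12), Hspa8 (-1.04), Vim (vimentin, -1.56) and Flna (filamin A, -1.08). Vim was at 831, 745 and 791 CPM in Smarcb1-RE and 2297, 2331 and 2352 CPM in SAHA, and the groups did not overlap.

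Subunits of the complexes that the treatments address differed moderately. Of 25 tested SWI/SNF subunits other than Smarcb1, 14 were higher in Smarcb1-RE and 7 in SAHA, with a median log2 fold change of 0.26 beside 0.02 for all 13500 genes. The counts of this and every later list are to be set beside all genes tested. Of those, 39.8% were higher in Smarcb1-RE and 38.7% in SAHA. All 4 tested subunits specific to the PBAF form were higher in Smarcb1-RE, with Phf10 at 0.92 and Brd7 at 0.88. The alternative ATPase Smarca2 was at 112, 118 and 113 CPM in Smarcb1-RE and 55.4, 57.7 and 57.4 CPM in SAHA (log2 fold change 1.01, SE 0.04), whereas the ATPase Smarca4 (-0.50) and the core subunit Smarcc1 (-0.84) were higher in SAHA. All 11 histone deacetylase genes were tested, and 6 were higher in Smarcb1-RE and 4 in SAHA. Hdac1, a class I enzyme and target of SAHA, was at 288, 284 and 279 CPM in Smarcb1-RE and 502, 527 and 522 CPM in SAHA (log2 fold change -0.87, SE 0.03, adjusted p = 8.62e-11), and Hdac11 was higher in Smarcb1-RE at a low level (2.53, SE 0.26). Of 30 Polycomb subunits, 13 were higher in Smarcb1-RE and 15 in SAHA (median -0.14, or 0.02 when scaled by library totals only). PRC2 members contributed 8 of the 11 tested to the SAHA side, including Rbbp7 (-0.90) and the methyltransferase Ezh2 (-0.41).

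Genes commonly induced by histone deacetylase inhibitors did not all stand higher in SAHA. Of 13 tested, 6 were higher in Smarcb1-RE and 4 in SAHA (median 0.09). Their summed level was nevertheless highest in SAHA, at 1210 CPM, against 729 CPM in Smarcb1-RE and 971 CPM in control. The linker histone gene H1f0, a classical marker of such inhibitors, was at 72.0, 67.8 and 74.5 CPM in Smarcb1-RE and 27.7, 30.1 and 32.3 CPM in SAHA (log2 fold change 1.25, SE 0.06, adjusted p = 9.83e-10), with a control mean of 40.9 CPM. Txnip, the thioredoxin-binding protein, was at 91.0, 96.1 and 95.4 CPM against 19.7, 28.2 and 26.3 CPM (log2 fold change 1.93, SE 0.09). The CDK inhibitor Cdkn1a differed by 1.02 (SE 0.11) at means of 8.08 and 3.99 CPM. On the SAHA side were Gadd45b (-1.34), the metallothioneins Mt2 (-1.34) and Mt1 (-1.01), and gelsolin, Gsn (-1.01).

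**Figure D3:**
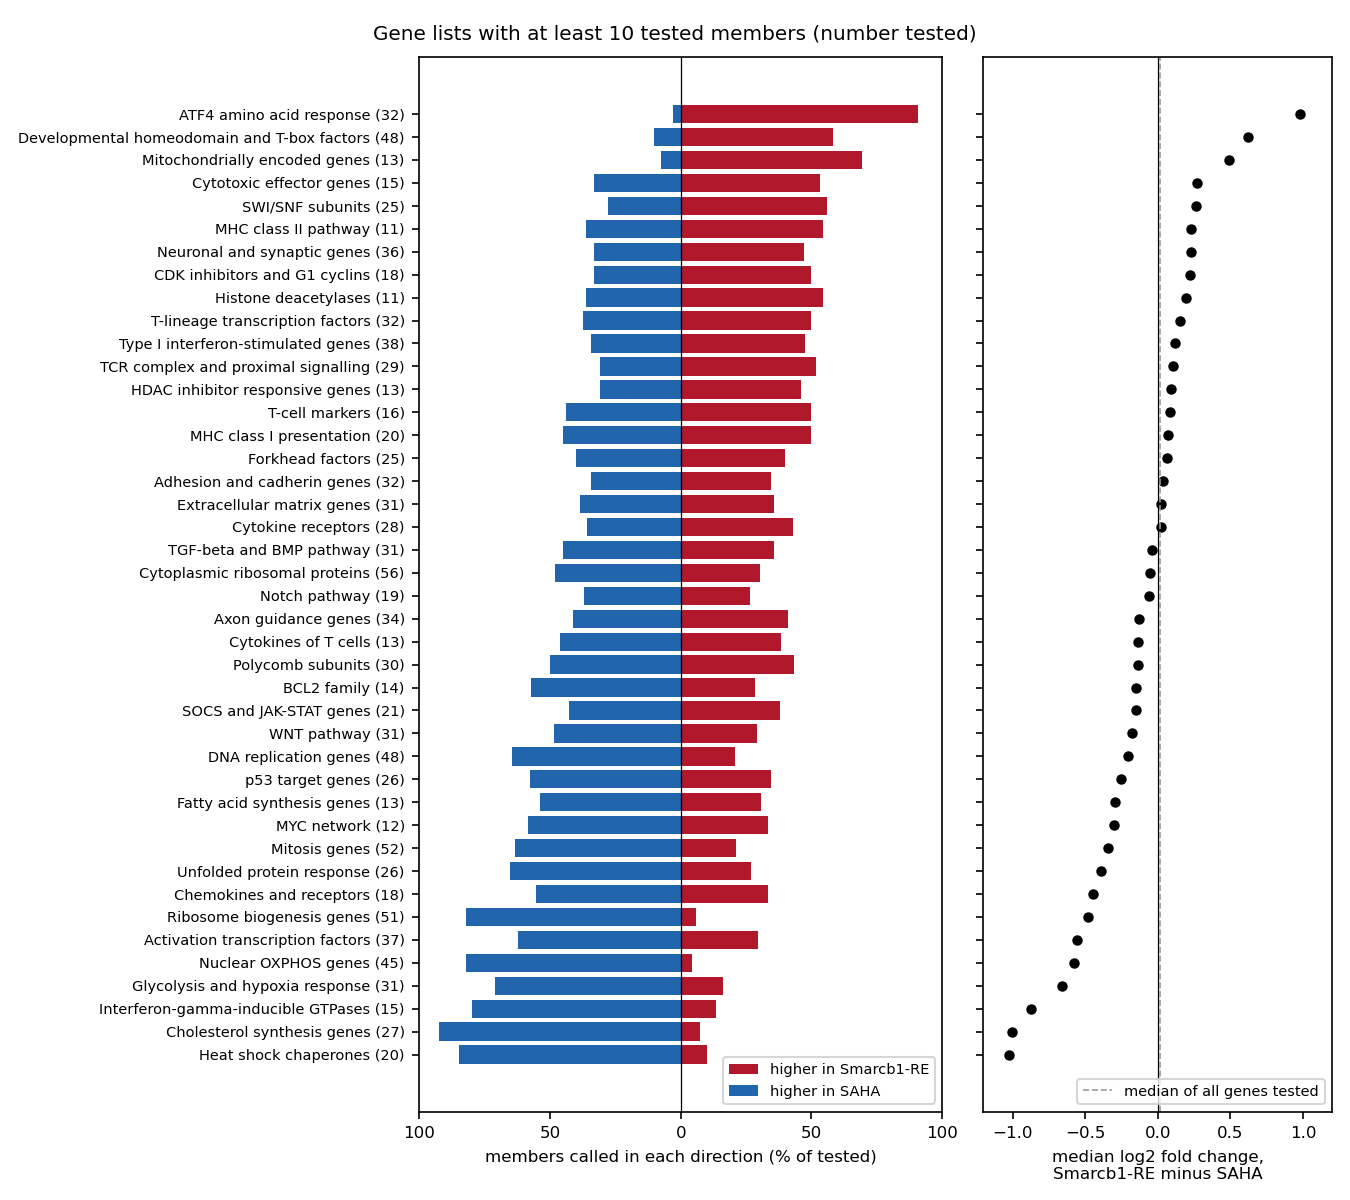
Left, share of tested members of each gene list called higher in Smarcb1-RE (red, to the right) or in SAHA (blue, to the left), in percent, with the number tested in parentheses. Right, median log2 fold change of the list (black points) beside that of all genes tested (dashed line). The ATF4 list lies at the top with a median of 0.98, and cholesterol synthesis and heat shock chaperones lie at the bottom with medians of -1.01 and -1.02.

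Among lists with at least 10 tested members, the amino acid response driven by the transcription factor ATF4 had the highest median. ATF4 is translated when amino acids run short or other stresses phosphorylate eIF2-alpha, and it induces enzymes, transporters and tRNA synthetases that restore amino acid supply. Of 32 tested members, 29 were higher in Smarcb1-RE and 1, the tryptophanyl-tRNA synthetase Wars (-0.84), was higher in SAHA, and the median log2 fold change was 0.98. Among the 8 regulators, all of which were higher in Smarcb1-RE, the pseudokinase Trib3 was at 72.8, 79.4 and 74.8 CPM in Smarcb1-RE and 3.18, 3.52 and 3.85 CPM in SAHA (log2 fold change 4.42, SE 0.07, adjusted p = 3.34e-13). Chac1, a glutathione-degrading enzyme, was at 31.3, 33.0 and 31.0 CPM against 3.18, 2.35 and 2.19 CPM (log2 fold change 3.62, SE 0.10). Control levels lay between the groups, with means of 15.5 CPM for Trib3 and 9.40 CPM for Chac1. Atf5 (2.56), Ddit4 (2.17), Cebpb (1.98) and Nupr1 (1.62) followed, while Atf4 itself differed by 0.82 at means of 419.5 and 237.4 CPM. Of the synthesis enzymes, 8 of 9 were higher in Smarcb1-RE, with asparagine synthetase (Asns) at 360, 365 and 365 CPM against 142, 120 and 127 CPM (log2 fold change 1.49, SE 0.05), and Phgdh was not called (-0.01). Of the transporters, 6 of 7 were higher in Smarcb1-RE, with Slc1a4 (2.85), Slc7a5 (1.33) and Slc3a2 (1.1), and Slc1a5 was not called (0.04). Of the tRNA synthetases, 7 of 8 were higher in Smarcb1-RE, from Gars (0.26) to Nars (1.08).

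The promoters of these genes were read from RefSeq (GRCm38.p6), where an entry of 250 bases before to 50 bases after the start was matched for 27 of the 32 tested members. The C/EBP-ATF composite element TGATGNAA, searched on both strands, was found in 10 of the 27 and in 2.35% of all 9796 matched promoters. Chac1 (chr2:119350992-119351241, plus strand) and Asns (chr6:7693210-7693459, minus strand) are shown because both held it within the 250 bases before the start, with the element in capitals, at 193 bases and 23 bases before the start.
Chac1: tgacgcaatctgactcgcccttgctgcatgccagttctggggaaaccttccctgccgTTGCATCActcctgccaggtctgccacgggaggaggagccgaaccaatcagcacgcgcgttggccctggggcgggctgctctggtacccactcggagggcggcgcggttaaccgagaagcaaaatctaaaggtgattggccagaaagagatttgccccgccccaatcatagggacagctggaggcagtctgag
Asns: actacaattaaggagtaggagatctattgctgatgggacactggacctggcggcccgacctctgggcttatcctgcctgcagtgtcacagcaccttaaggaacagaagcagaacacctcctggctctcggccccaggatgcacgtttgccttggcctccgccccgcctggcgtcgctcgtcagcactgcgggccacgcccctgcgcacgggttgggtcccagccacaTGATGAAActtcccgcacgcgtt
In GENCODE M21, an exon of each gene begins within the stretch shown, and that of Asns includes the element. The element was chosen for this search with the list's values known, and a match is a description of the sequence only.

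Chaperones had the lowest median among these lists. Heat shock proteins fold nascent and damaged proteins and are controlled by HSF1. Of 20 tested genes, 17 were higher in SAHA and 2 in Smarcb1-RE (Dnajb4, 0.49, and Hsf1, 0.20), with a median log2 fold change of -1.02. Hsp90aa1 was at 605.5, 586 and 588 CPM in Smarcb1-RE, 1866, 1732 and 1752 CPM in SAHA and 2364, 2258 and 2193 CPM in control (log2 fold change -1.59, SE 0.03, adjusted p = 2.32e-12). Stip1, the adaptor between HSP70 and HSP90, was at 114.5, 112 and 116 CPM against 356, 345 and 350.5 CPM (log2 fold change -1.62, SE 0.03). In both cases SAHA was the group nearer to control. Hspa1b was at 5.78, 5.20 and 5.34 CPM against 21.1, 26.4 and 24.3 CPM (log2 fold change -2.13, SE 0.10). Its near-identical copy Hspa1a was at 0.565, 0.0452 and 0.175 CPM against 3.14, 1.94 and 5.73 CPM, with an SE of 0.56 on a log2 fold change of -3.74, and reads of this pair may have been divided between the copies. The unfolded protein response of the endoplasmic reticulum was split: 17 of 26 genes were higher in SAHA and 7 in Smarcb1-RE (median -0.39). The lumenal folding proteins Calr (-1.30), Pdia3 (-1.23) and Pdia4 (-0.99) were higher in SAHA. The stress factor Ddit3 (CHOP) was at 37.2, 39.8 and 37.3 CPM in Smarcb1-RE and 4.72, 4.83 and 3.85 CPM in SAHA (log2 fold change 3.09, SE 0.08), and Herpud1, a component of ER-associated degradation, differed by 2.34 (SE 0.05).

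Lipid synthesis and energy metabolism were mostly higher in SAHA. The cholesterol pathway is controlled by SREBP2, and of 27 tested genes 25 were higher in SAHA and 2 in Smarcb1-RE, the regulators Insig2 (0.39) and Scap (0.10), with a median of -1.01. All 20 enzymes were higher in SAHA. Squalene epoxidase (Sqle) was at 70.8, 71.2 and 66.9 CPM in Smarcb1-RE and 188, 197 and 197 CPM in SAHA (log2 fold change -1.48, SE 0.04, adjusted p = 7.45e-12), with a control mean of 155 CPM. Cyp51, the sterol demethylase, was at 154, 155 and 149 CPM against 417, 416 and 422 CPM (log2 fold change -1.45, SE 0.03). In fatty acid synthesis, 7 of 13 genes were higher in SAHA and 4 in Smarcb1-RE (median -0.29). The desaturase Scd1 was at 67.2, 65.2 and 63.8 CPM in Smarcb1-RE and 445, 430 and 437 CPM in SAHA (log2 fold change -2.74, SE 0.03, adjusted p = 6.93e-14), with Elovl5 at -1.63 and Acly at -1.16, whereas Acacb was higher in Smarcb1-RE (1.07).

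Of 31 glycolysis and hypoxia genes, 22 were higher in SAHA and 5 in Smarcb1-RE (median -0.66), including 16 of 20 glycolytic genes on the SAHA side. The list summed to 4910 CPM in Smarcb1-RE, 9010 CPM in SAHA and 8700 CPM in control, so SAHA was the group nearer to control. Pgam1, phosphoglycerate mutase, was at 167, 141 and 150 CPM in Smarcb1-RE and 462, 451 and 468 CPM in SAHA (log2 fold change -1.59, SE 0.05). Aldoa (-1.74) and Pgk1 (-1.19) lay on the same side, although Aldoa spread from 230 to 382 CPM within Smarcb1-RE. Unlike the list sum, the control mean of Aldoa, 340 CPM, was beside Smarcb1-RE, and SAHA, at a mean of 1028 CPM, stood above both. The angiogenic factor Vegfa (1.76) and the glucose transporter Slc2a3 (0.81) were higher in Smarcb1-RE. Nuclear and mitochondrial genes of the respiratory chain lay mostly on opposite sides. Of 45 nuclear genes of oxidative phosphorylation, 37 were higher in SAHA and 2 in Smarcb1-RE (Sdhb, 0.51, and Ndufb5, 0.31), with a median of -0.57. They summed to 4720 CPM in Smarcb1-RE, 7170 CPM in SAHA and 7450 CPM in control. All 8 tested genes of complex IV and all 8 of complex V were higher in SAHA. Uqcrfs1, the Rieske iron-sulphur subunit, was at 67.9, 63.0 and 65.2 CPM in Smarcb1-RE and 196.5, 201 and 210 CPM in SAHA (log2 fold change -1.63, SE 0.04). Of the 13 protein genes of the mitochondrial genome, 9 were higher in Smarcb1-RE and 1, mt-Nd1 (-0.31), was higher in SAHA, with a median of 0.49 and a maximum of 0.87 at mt-Nd4l. The cytochrome b gene mt-Cytb was at 5833, 5636 and 5591 CPM in Smarcb1-RE and 3858, 4127 and 4126 CPM in SAHA. The share of all counts from the mitochondrial genome was higher in Smarcb1-RE too, as given above, and its part in these values was not tested. Both directions held with every scaling tried, with medians of -0.42 and 0.65 when scaled by library totals only.

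Most growth and division genes called different were likewise higher in SAHA, by smaller amounts. Summed levels of the ribosome biogenesis, DNA replication and mitosis lists were nevertheless under control in both treatments, which was not tested. Ribosome biogenesis genes summed to 8270 CPM in Smarcb1-RE, 11300 CPM in SAHA and 14300 CPM in control. In the same order, DNA replication genes summed to 5610, 6970 and 9240 CPM and mitosis genes to 5420, 6460 and 8320 CPM. Of 51 ribosome biogenesis genes, 42 were higher in SAHA and 3 in Smarcb1-RE (median -0.48). This included 33 of 37 rRNA processing factors, and Mybbp1a (-1.04), Nolc1 (-1.03) and Rrp9 (-1.01) differed most, while of 7 genes of RNA polymerase I and its initiation factors, 2 were higher in each treatment, and those on the Smarcb1-RE side, Polr1a (0.09) and Taf1d (0.22), lost their call under some alternatives. Ribosomal proteins differed little, with 50 of 56 within 1.5-fold (median -0.05, or 0.11 when scaled by library totals only). Myc was at 248.5, 238.2 and 249 CPM in Smarcb1-RE and 434, 431 and 425 CPM in SAHA (log2 fold change -0.81, SE 0.03), and its antagonist Mxd4 was higher in Smarcb1-RE (1.32). Of 12 MYC network genes, 7 were higher in SAHA and 4 in Smarcb1-RE (median -0.30, or -0.14 when scaled by library totals only). They summed to 818 CPM in Smarcb1-RE, 1010 CPM in SAHA and 868 CPM in control. SAHA thus stood above control in this list, and also at Myc, whose control mean was 361 CPM. Of 48 DNA replication genes, 31 were higher in SAHA and 10 in Smarcb1-RE (median -0.21, or -0.05 when scaled by library totals only), led by Fen1 (flap endonuclease, -1.07). Of 52 mitosis genes, 33 were higher in SAHA and 11 in Smarcb1-RE (median -0.34, or -0.18 when scaled by library totals only). Pttg1, securin, was at 56.4, 57.5 and 56.3 CPM in Smarcb1-RE and 180, 194.5 and 186.5 CPM in SAHA (log2 fold change -1.72, SE 0.04). Its control mean of 138 CPM lay between the groups. Plk1, the mitotic kinase, was at 30.9, 32.3 and 30.4 CPM against 62.4, 62.9 and 63.2 CPM (log2 fold change -1.01, SE 0.04), and its control mean of 106 CPM exceeded both. The proliferation marker Mki67 ran the other way, within 1.5-fold (0.31).

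Cell cycle inhibitors and death genes were mixed. Of 18 CDK inhibitors and G1 cyclins, 9 were higher in Smarcb1-RE and 6 in SAHA (median 0.22). Besides Cdkn1a, the inhibitors Cdkn1c (0.99) and Cdkn2c (0.91) were higher in Smarcb1-RE, and the cyclins Ccnd3 (-1.2) and Ccnd2 (-0.99) in SAHA. Of 26 p53 targets, 15 were higher in SAHA, among them Perp (-2.51) and the death receptor Fas (-1.88), and 9 in Smarcb1-RE, among them Trp53inp1 (1.90), for a median of -0.25 (-0.10 when scaled by library totals only). Of 14 BCL2 family genes, 8 were higher in SAHA and 4 in Smarcb1-RE (median -0.15, or 0.01 when scaled by library totals only). Of the 6 pro-survival genes, 5 were higher in SAHA, including Mcl1 (-0.54), while the BH3-only genes Bcl2l11 (BIM, 0.94) and Bmf (0.83) were higher in Smarcb1-RE.

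T-cell markers differed by small amounts. Of 20 markers, 16 were tested, and 8 of these were higher in Smarcb1-RE and 7 in SAHA (median 0.09). Of the 16, 13 lay within 1.5-fold (44.0% of all genes tested did), with no member at least 2-fold apart and a summed level of 7020 to 7130 CPM in Smarcb1-RE and 6730 to 6830 CPM in SAHA. Cd8a and Cd8b1, the CD8 coreceptor chains, differed by -0.35 and -0.46 and Cd3g by -0.74, while the kinase Lck differed by 0.76. Cd2, Cd5, Cd6 and Thy1 did not reach the count filter. Of 29 tested genes of the T-cell receptor complex and its proximal signalling, 20 lay within 1.5-fold, 15 were higher in Smarcb1-RE and 9 in SAHA (median 0.10), and 7 of 10 adaptors were higher in Smarcb1-RE, among them Sit1 (1.49).

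Transcription factors of the T lineage differed by member. Of 32 tested, 16 were higher in Smarcb1-RE and 12 in SAHA (median 0.15). Tcf7 (TCF-1), a factor of naive and stem-like T cells, was at 45.6, 49.9 and 48.5 CPM in Smarcb1-RE and 257, 267 and 276 CPM in SAHA (log2 fold change -2.47, SE 0.04, adjusted p = 5.31e-13), against a control mean of 287.5 CPM. Gata3, the Th2 factor, was at 17.0, 17.8 and 16.4 CPM against 3.14, 3.70 and 2.85 CPM (log2 fold change 2.40, SE 0.10). Runx1 differed by 1.88 and Zeb2, a factor of terminal effector cells, by -2.49. Factors induced by activation were mainly on the SAHA side: of 37 tested, 23 were higher in SAHA and 11 in Smarcb1-RE (median -0.55). This included 9 of 12 NF-kappaB genes, 6 of 10 AP-1 genes and 4 of 5 interferon regulatory factors, beside Egr2 (-2.50) and the Egr3 and Irf8 values above. NFAT members went the other way, with 3 of 4 higher in Smarcb1-RE, including Nfatc2 (0.90).

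Effector cytokines and chemokines distinguished the treatments at single genes more than as groups. Ifng, interferon-gamma, was at 25.5, 24.3 and 26.9 CPM in Smarcb1-RE and 169, 187 and 178 CPM in SAHA (log2 fold change -2.80, SE 0.05, adjusted p = 8.57e-13), and the control mean of 23.8 CPM was beside Smarcb1-RE. Tnf was at 30.1, 27.3 and 33.3 CPM against 92.5, 95.8 and 100.0 CPM (log2 fold change -1.67, SE 0.06). Tgfb1 (-2.56) was also higher in SAHA, and Il10, Il16 (2.42) and Flt3l (1.33) were higher in Smarcb1-RE. Of 13 tested T-cell cytokines, 6 were higher in SAHA and 5 in Smarcb1-RE (median -0.14, or 0.02 when scaled by library totals only and between -0.39 without Smarcb1-RE replicate 1 and 0.26 without SAHA replicate 3). The median was -0.56 where at least 10 counts were required in every library. Of 18 chemokines and chemotactic receptors, 10 were higher in SAHA and 6 in Smarcb1-RE (median -0.45, or -0.16 without SAHA replicate 1 and -0.15 without SAHA replicate 2). Cxcl10, a chemokine induced by interferons, was at 16.4, 15.3 and 16.1 CPM in Smarcb1-RE and 150, 160 and 160.5 CPM in SAHA (log2 fold change -3.30, SE 0.05, adjusted p = 1.50e-13). S1pr1 (-2.79) and the lymph node homing receptor Ccr7 (-2.75) followed, and Ccl27a, a gene with near-identical copies, was higher in Smarcb1-RE (1.92).

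Among 28 tested cytokine receptors, 12 were higher in Smarcb1-RE and 10 in SAHA (median 0.02), that is 42.9% and 35.7%, near the 39.8% and 38.7% of all genes tested. Csf2rb, the common beta chain of the receptors for IL-3, IL-5 and GM-CSF, was at 60.6, 64.1 and 62.5 CPM in Smarcb1-RE and 5.74, 4.83 and 4.38 CPM in SAHA (log2 fold change 3.64, SE 0.07, adjusted p = 1.47e-12). Il9r (3.28) and Il10ra (1.7) lay on the same side. Il7r, the receptor for the T-cell survival factor IL-7, was at 7.30, 6.78 and 7.62 CPM against 49.7, 52.6 and 48.0 CPM (log2 fold change -2.79, SE 0.06), with a control mean of 37.1 CPM. Of 21 SOCS and JAK-STAT genes, 9 were higher in SAHA and 8 in Smarcb1-RE (median -0.15, or 0.01 when scaled by library totals only). Those counts, 42.9% and 38.1%, were likewise near the shares of all genes. The feedback inhibitor Socs3 (-1.97), Jak2 (-1.09) and Stat2 (-0.98) were higher in SAHA, and Pias3 (0.81) and Cish (0.80) in Smarcb1-RE.

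Inhibitory receptors and exhaustion factors were divided between the treatments. Only 9 of 18 listed genes reached the filter, and 4 were higher in each treatment (median -0.10, or 0.06 when scaled by library totals only and -0.01 without Smarcb1-RE replicate 2). Pdcd1 (PD-1) was at 80.6, 81.7 and 79.8 CPM in Smarcb1-RE and 24.9, 31.4 and 31.8 CPM in SAHA (log2 fold change 1.46, SE 0.07, adjusted p = 1.74e-09), with a control mean of 11.9 CPM. Havcr2 (TIM-3) was at 28.6, 23.9 and 27.8 CPM against 10.3, 9.70 and 9.98 CPM (log2 fold change 1.42, SE 0.08), and Cd200r1 differed by 1.28. Tigit (-1.08) and Vsir (VISTA, -0.85) were higher in SAHA. Cytotoxic genes were also divided, with 8 of 15 higher in Smarcb1-RE and 5 in SAHA (median 0.27). Perforin, Prf1, was at 2.87, 2.94 and 2.45 CPM in Smarcb1-RE and 26.2, 25.9 and 27.9 CPM in SAHA (log2 fold change -3.27, SE 0.09), and the granule proteoglycan Srgn differed by -1.22. The death ligand Tnfsf10 (TRAIL, 1.36) and the granule regulator Lyst (1.14) were higher in Smarcb1-RE. Of 25 NK lectin-like receptor genes, 2 were tested, with 1 called in each direction.

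Genes induced by interferons were divided into those that mainly answer to type I interferons and the GTPases induced by interferon-gamma. Of 38 tested type I interferon-stimulated genes, 18 were higher in Smarcb1-RE and 13 in SAHA (median 0.12, or 0.22 without SAHA replicate 2). These shares, 47.4% and 34.2%, were near those of all genes tested (39.8% and 38.7%). The summed level of the list went the other way, at 3120 to 3140 CPM in Smarcb1-RE and 3850 to 4220 CPM in SAHA, with 2980 CPM in control. The exonuclease Isg20 was at 22.7, 22.8 and 22.6 CPM in Smarcb1-RE and 2.30, 2.53 and 2.06 CPM in SAHA (log2 fold change 3.30, SE 0.09), with Ifi27 at 1.38 and Rtp4 at 1.28, and Lgals9 (-1.04) and Samhd1 (-0.99) were higher in SAHA. Of 15 GTPases induced by interferon-gamma, 12 were higher in SAHA and 2 in Smarcb1-RE (Gbp9, 0.38, and Gbp8, 0.21), with a median of -0.87. These GTPases attack the vacuoles of intracellular microbes. All 7 immunity-related GTPases were higher in SAHA, with Igtp at 223, 220.4 and 228 CPM in Smarcb1-RE and 536, 614 and 601 CPM in SAHA (log2 fold change -1.38, SE 0.05, adjusted p = 8.44e-11). Tgtp2 was at 16.8, 14.1 and 10.9 CPM against 39.9, 54.8 and 45.3 CPM (log2 fold change -1.74, SE 0.14), and the guanylate-binding protein gene Gbp2 at 60.8, 56.3 and 57.8 CPM against 122, 152.5 and 149 CPM (log2 fold change -1.27, SE 0.07). Tgtp1 and Tgtp2, like several Gbp genes, are close copies, so reads may have been divided between them.

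An entry among the RefSeq promoters was matched for 9 of the 15 tested GTPase genes, under 80% of them, so a comparison with all promoters is void for this list. The core of the interferon-stimulated response element (TTTC, a pair of any bases, then TTTC), searched on both strands, was found in these 9. The promoters of the 3 genes described above are shown with this motif in capitals, for Igtp (chr11:58199306-58199555, plus strand), Tgtp2 (chr11:49064213-49064462, minus strand) and Gbp2 (chr3:142620413-142620662, plus strand), each as the 250 bases before the start in GRCm38.p6.
Igtp: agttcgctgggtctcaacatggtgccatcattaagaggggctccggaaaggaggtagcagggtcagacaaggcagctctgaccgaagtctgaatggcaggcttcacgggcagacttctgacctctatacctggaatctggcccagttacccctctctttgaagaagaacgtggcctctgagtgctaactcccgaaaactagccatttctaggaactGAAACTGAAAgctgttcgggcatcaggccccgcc
Tgtp2: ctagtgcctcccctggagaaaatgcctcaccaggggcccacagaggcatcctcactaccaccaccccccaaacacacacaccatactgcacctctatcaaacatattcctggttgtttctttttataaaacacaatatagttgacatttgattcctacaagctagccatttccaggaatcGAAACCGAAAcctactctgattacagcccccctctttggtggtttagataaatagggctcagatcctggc
Gbp2: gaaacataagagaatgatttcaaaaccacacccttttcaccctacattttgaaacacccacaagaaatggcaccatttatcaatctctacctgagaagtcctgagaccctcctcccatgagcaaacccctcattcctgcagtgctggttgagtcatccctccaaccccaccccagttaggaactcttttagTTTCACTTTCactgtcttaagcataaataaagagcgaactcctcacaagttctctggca
The motif began 34, 70 and 59 bases before the start, respectively, and in Gbp2 it lies within an exon of GENCODE M21.

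Antigen presentation genes were divided between the treatments. Of 20 class I genes, 10 were higher in Smarcb1-RE and 9 in SAHA (median 0.07). The class Ib chain H2-Q4 (1.44) and the regulator Nlrc5 (0.98) were higher in Smarcb1-RE, and Irf1 (-0.67), beside Calr and Pdia3 above, in SAHA. Of 11 class II genes, 6 were higher in Smarcb1-RE and 4 in SAHA (median 0.23). The chain gene H2-Ab1 was at 3.87, 3.39 and 2.93 CPM in Smarcb1-RE, 11, 15.2 and 15.8 CPM in SAHA and 0.345, 0.302 and 0.463 CPM in control (log2 fold change -2.04, SE 0.15). Both treatments thus stood above the control range. All 3 tested regulators of class II transcription were higher in Smarcb1-RE, including Rfx5 (1.33), at 80.8, 79.9 and 80.8 CPM against 31.9, 33.0 and 30.9 CPM.

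Developmental regulators lay towards Smarcb1-RE. Of 76 homeodomain and T-box factors 48 passed the count filter, and 28 of these were higher in Smarcb1-RE and 5 in SAHA, with a median of 0.62 (0.37 where at least 10 counts were required in every library). The 48 summed to 969 CPM in Smarcb1-RE and 862 CPM in SAHA. Genes at low level leaned this way in general. Of all 3176 genes whose average log2 CPM was from 1 to under 4, 1548 were higher in Smarcb1-RE and 794 in SAHA. The part of level and of the count filter in this list was not tested. Dlx2, a homeodomain factor of the forebrain, was at 17.8, 19.9 and 16.6 CPM in Smarcb1-RE and 1.59, 1.94 and 1.66 CPM in SAHA (log2 fold change 3.38, SE 0.12, adjusted p = 1.36e-10), and its neighbour Dlx1 differed by 2.92. En1 was at 3.65, 3.62 and 3.55 CPM against 0.618, 0.406 and 0.219 CPM (log2 fold change 3.10, SE 0.27). The largest difference towards SAHA on this list was that of Hoxb4 (-0.69). Forkhead factors were split evenly, 10 to each side of 25 (median 0.07), with Foxb1 the highest value.

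Lists of neural and adhesion genes were divided. Of 34 tested axon guidance genes, 14 were higher in each treatment (median -0.13, or 0.03 when scaled by library totals only, and between -0.31 without SAHA replicate 1 and -0.01 without SAHA replicate 2). This was 41.2% on each side, near the 39.8% and 38.7% of all genes tested. Nrp2, a receptor of semaphorins and VEGF, was at 313, 318 and 320.4 CPM in Smarcb1-RE and 59.4, 60.7 and 58.8 CPM in SAHA (log2 fold change 2.41, SE 0.03, adjusted p = 7.84e-14), and 7 of 8 tested plexin and neuropilin genes were higher in Smarcb1-RE. Ephrin pathway genes included 5 of 10 higher in SAHA, such as Ephb6 (-1.28). Of 36 neuronal genes, 17 were higher in Smarcb1-RE and 12 in SAHA (median 0.23). Besides Ddc, the intermediate filament gene Ina (2.71) was higher in Smarcb1-RE. The synaptic fusion protein Snap25 was at 33.7, 35.4 and 34.0 CPM in Smarcb1-RE and 147, 147 and 141 CPM in SAHA (log2 fold change -2.08, SE 0.04), with Tubb2b on the same side. Of 32 adhesion genes, 11 were higher in each treatment (34.4%, also near the shares of all genes, with a median of 0.04). Cd44 (-1.2) and Icam1 (-1.06) were on the SAHA side and Cldn12 (1.58) on the other. Of 31 matrix genes, 12 were higher in SAHA, among them the protease gene Adamts1 (-3.55), and 11 in Smarcb1-RE, among them the collagen gene Col4a5 (2.82), for a median of 0.02.

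In the WNT, Notch and TGF-beta pathways, the largest differences were towards SAHA. Of 31 WNT pathway genes, 15 were higher in SAHA and 9 in Smarcb1-RE (median -0.18, and between -0.28 without Smarcb1-RE replicate 2 and 0.09 without SAHA replicate 2). Axin2, a feedback inhibitor and target of the pathway, was at 0.391, 0.497 and 0.482 CPM in Smarcb1-RE and 5.65, 6.05 and 4.77 CPM in SAHA (log2 fold change -3.57, SE 0.21), and Wnt6 differed by -2.75. Of 19 Notch genes, 7 were higher in SAHA and 5 in Smarcb1-RE (median -0.06, or 0.10 when scaled by library totals only), and the ligand Jag1 was at 6.60, 6.51 and 6.79 CPM against 37.7, 39.2 and 37.1 CPM (log2 fold change -2.52, SE 0.06). Of 31 TGF-beta and BMP genes, 14 were higher in SAHA and 11 in Smarcb1-RE (median -0.04, or 0.12 when scaled by library totals only). The shares of 45.2% and 35.5% were near those of all genes tested (38.7% in SAHA and 39.8% in Smarcb1-RE). The ligands Gdf11 (-3.29) and Tgfb1 were higher in SAHA, and Smad9 (1.21) and the receptor Acvr2a (1.12) in Smarcb1-RE.

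Markers of other cell types were mostly below the count filter: 2 of 18 myeloid, 1 of 8 NK-cell, 4 of 12 B-cell, 2 of 13 erythroid and megakaryocytic and 3 of 13 stromal and endothelial markers were tested. The tested myeloid markers, Cd68 (-2.03) and Cebpa (-1.09), summed to 2.67 to 3.16 CPM in Smarcb1-RE and 8.61 to 9.94 CPM in SAHA, and Lyz2, Csf1r, Itgam and Spi1 were under the filter. The B-cell genes Pax5 (2.33) and Ms4a1 (2.18) were higher in Smarcb1-RE at means of 3.96 and 3.58 CPM, while Cd79a and Cd79b were under the filter, and the 4 tested summed to 159 to 167 CPM against 106 to 116 CPM, mostly from Ebf1. Among the stromal markers, Pdgfra, a platelet-derived growth factor receptor, was at 69.2, 67.2 and 68.7 CPM in Smarcb1-RE and 6.09, 6.00 and 5.95 CPM in SAHA (log2 fold change 3.51, SE 0.05), without detectable Col1a2, Col3a1 or Dcn at the filter used. The NK marker tested was Eomes (2.77), at means of 1.65 and 0.237 CPM. The erythroid receptor gene Epor differed by -1.06 and Itga2b by 0.48. The part of other cells in these values was not tested.

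The most abundant protein-coding genes within 1.5-fold were mt-Co1 (-0.03), Eef1a1 (-0.15), mt-Cytb (0.49), Eef2 (-0.33), mt-Co3 (0.08) and Rpl4 (0.05), which encode subunits of the respiratory chain, elongation factors and a ribosomal protein. At mt-Co1 and mt-Co3 the libraries of the groups overlapped. Of all genes tested, 1906 were both within 1.5-fold and not called, and 995 were neither called nor shown to lie within that limit.

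Differences were not spread evenly over the genome. On chromosome 4, 446 of 680 protein-coding genes (average log2 CPM 1 or more) were higher in Smarcb1-RE and 153 in SAHA, with a median log2 fold change of 0.39, against -0.02 for the 8874 such genes on the other autosomes without chromosomes 4 and 11. The shift of 0.41 was between 0.39 and 0.40 when each Smarcb1-RE library was set against each SAHA library. The same shift was 0.37 in Smarcb1-RE relative to control and -0.03 in SAHA relative to control. Of the genes named above, Macf1, Lck, Nsmaf, Trp53inp1, Ccl27a, Pax5, Sit1, Cdkn2c and Sdhb, higher in Smarcb1-RE, and Hdac1 and Selenon, higher in SAHA, lie on chromosome 4. How far the fold change of each of them shares the chromosome 4 shift was not tested, nor was the origin of the shift. On chromosome 11, 512 of 916 genes were higher in SAHA and 265 in Smarcb1-RE, with a median of -0.23, a shift of -0.21 (-0.12 in Smarcb1-RE and 0.04 in SAHA relative to control). Genes named above on chromosome 11 include Igtp, Tgtp2, Irf1, Lgals9, Tcf7, Ccr7, Socs3, Pttg1, Mybbp1a, Gsdma and Evi2b, higher in SAHA. Fam196b, Ddc, Stc2, Il9r and Havcr2, higher in Smarcb1-RE, lie there too. How far each of these fold changes shares the chromosome 11 shift, and the origin of that shift, were not tested either. No other autosome had a median beyond 0.12 in either direction.

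**Figure D4:**
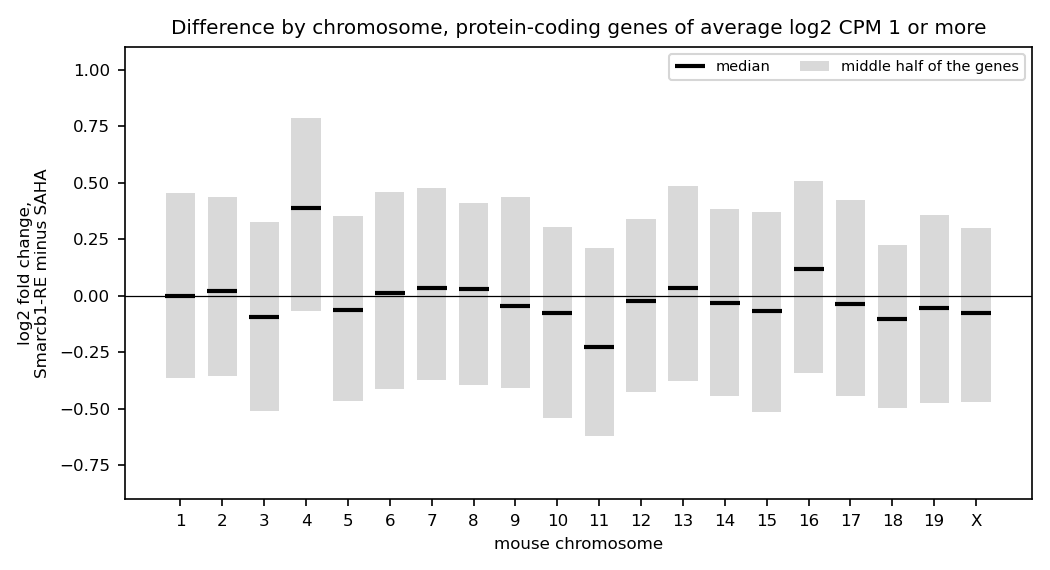
Log2 fold change, Smarcb1-RE minus SAHA (y axis), of protein-coding genes (average log2 CPM 1 or more) by mouse chromosome (x axis), as the median (black lines) and the interquartile range (grey bars). Chromosome 4 lies highest, with a median of 0.39 over 680 genes, and chromosome 11 lowest, with -0.23 over 916 genes.

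Where it could be counted, the promoters of genes higher in Smarcb1-RE more often held few CpG dinucleotides. Most promoters of widely expressed genes lie in CpG islands, and promoters without one tend to belong to tissue-specific genes. Promoter entries were matched for 77.6% of the protein-coding genes at least 2-fold higher in Smarcb1-RE and 79.6% of those higher in SAHA, both under 80%, so the check is void for the whole sets and is given for genes whose average log2 CPM was 4 or more, where 80.6%, 84.9% and 83.4% (all tested) were matched. In that range, the CpG observed-to-expected ratio was under 0.6 in 35.4% of the 291 promoters of genes at least 2-fold higher in Smarcb1-RE, in 19.6% of the 398 of genes higher in SAHA and in 18.7% of all 6555. The median ratios were 0.70, 0.79 and 0.81. The AP-1 motif TGANTCA was present in 9.28%, 5.03% and 4.10%, and the YY1-like motif GCCATNTT in 6.87%, 4.77% and 10.6%. The other motifs searched by name were the TATA box (6.87% for Smarcb1-RE, 8.29% for SAHA and 5.84% for all), the CCAAT box (41.2%, 41.0% and 39.6%), the GC box (58.8%, 70.6% and 69.1%), the E-box (9.62%, 12.1% and 11%), the cyclic AMP response element (1.72%, 2.76% and 3.45%) and the interferon-stimulated response element (4.12%, 3.27% and 3.31%). All were searched on both strands, and the GC box itself contains a CpG.

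**Figure D5:**
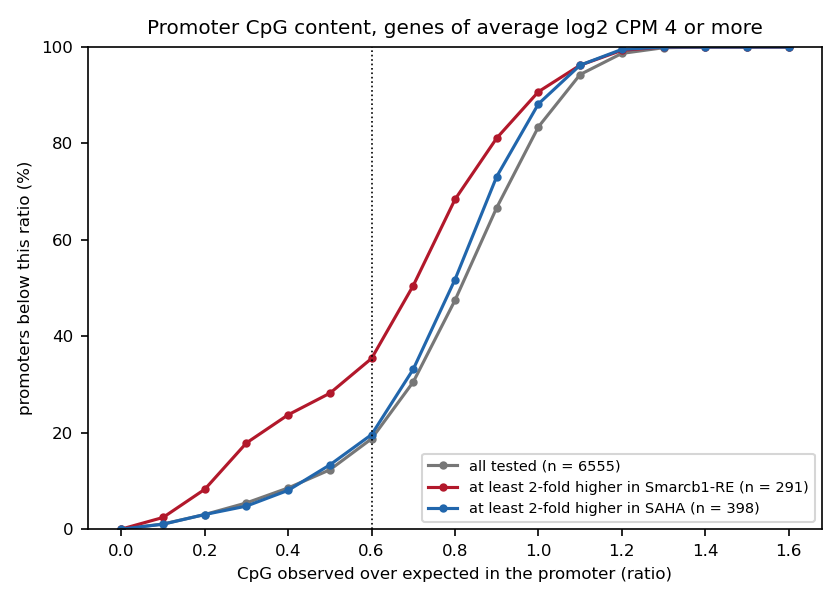
Cumulative share of promoters (y axis, percent) below a given CpG observed-to-expected ratio (x axis) for genes whose average log2 CPM was 4 or more: all tested (grey, n = 6555), at least 2-fold higher in Smarcb1-RE (red, n = 291) and at least 2-fold higher in SAHA (blue, n = 398). At the dotted line, a ratio of 0.6, the red curve stands at 35.4% and the blue and grey curves at 19.6% and 18.7%.

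The promoters of 2 genes described above show low CpG content, with each CG in capitals. Pdcd1 (chr1:94052554-94052803, minus strand) and Macf1 (chr4:123684361-123684610, minus strand), both higher in Smarcb1-RE, held 3 and 2 CpG in the 250 bases before the start.
Pdcd1: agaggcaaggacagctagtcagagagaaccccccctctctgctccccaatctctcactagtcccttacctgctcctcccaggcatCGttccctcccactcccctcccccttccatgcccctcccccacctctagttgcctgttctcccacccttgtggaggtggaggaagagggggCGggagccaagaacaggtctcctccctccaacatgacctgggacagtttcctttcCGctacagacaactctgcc
Macf1: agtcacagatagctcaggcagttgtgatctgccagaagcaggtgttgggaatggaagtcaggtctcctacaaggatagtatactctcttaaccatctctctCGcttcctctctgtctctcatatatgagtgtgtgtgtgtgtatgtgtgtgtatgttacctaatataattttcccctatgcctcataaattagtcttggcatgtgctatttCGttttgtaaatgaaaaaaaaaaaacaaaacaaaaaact
They were chosen after their values were seen and stand for these genes alone. Each is the RefSeq start nearest the outer end of the annotated gene, and other starts were not read.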

How the data were processed

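Estimated counts per gene of 9 T15 libraries, from stranded single-end reads, were deposited by the authors without normalization or pooling. The submitters' processing notes name Salmon 0.14.1, DESeq2 1.22.2, FastQC 0.11.8, MultiQC 1.7 and GRCm38, and the annotation is not given in the sources used here. The estimated counts were rounded. Gene names and coordinates came from GENCODE M21 (99.46% of identifiers matched) and promoters from RefSeq GRCm38.p6 (9796 of 12048 coding genes, chromosome 18 left out). For a gene with several RefSeq starts, the start nearest the outer end of its GENCODE record was kept. Which start T15 cells use was not tested. Reads shared by close copies were divided by the quantification.

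The 3 Smarcb1-RE and 3 SAHA libraries, grouped by their titles, were fitted alone with edgeR 4.0.16 in R 4.3.3, using TMM factors, filterByExpr (minimum count 10) and the quasi-likelihood F test, with Benjamini-Hochberg adjusted p under 0.05 as the threshold. Fold changes are log2, Smarcb1-RE minus SAHA, and the SE was taken as the size of the log2 fold change over the root of F. Intervals of 95% for the 1.5-fold limit came from limma 3.58.1 (log2 CPM, prior count 2). Replicates differed by more than sampling noise (chi-square per gene 2.06 to 4.69). The calculations were tested on simulated counts, where most changed genes were recovered and the share of false calls was above the nominal threshold.

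Named genes are Smarcb1, per direction the 12 coding genes with the largest difference (average log2 CPM 1 or more, no overlap) and the 6 most abundant at least 2-fold apart, up to 3 members per list and direction, and the 6 most abundant within 1.5-fold. Other genes were named after their values were seen. Some genes that the rule selects are not reported here. The comparison, the 49 lists, the motifs and this rule were chosen with earlier results of these data known. Alternatives were DESeq2 1.42.0, limma, median-ratio factors, library totals only, no filter, at least 10 counts in every library, control libraries also fitted, a replicate block, thinned counts, a limma prior count of 0.5 and leaving out each library.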

Additional observations from a re-analysis of the deposited data

How the results depend on the processing

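The counts of genes were recomputed under every alternative run and stayed within 1.5 times the reported number. Genes higher in Smarcb1-RE ranged from 4861 (DESeq2) to 6656 (library totals only), and genes higher in SAHA from 4085 (library totals only) to 5512 (no filter). Genes at least 2-fold higher in Smarcb1-RE ranged from 1116 (at least 10 counts in every library) to 2031 (library totals only), and genes at least 2-fold higher in SAHA from 792 (at least 10 counts in every library) to 1402 (no filter). With each library left out in turn, genes higher in Smarcb1-RE lay between 5181 and 5401 and genes higher in SAHA between 5092 and 5308, genes at least 2-fold higher in Smarcb1-RE between 1605 and 1679 and genes at least 2-fold higher in SAHA between 1105 and 1187, and genes within 1.5-fold between 5635 and 5855. DESeq2 shared 9826 calls with the 10599 reported.

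The log2 fold change of Smarcb1 lay between 3.84 and 4.84 with a library left out and between 4.07 and 4.39 otherwise, and passed in each. Where at least 10 counts were required in every library it was removed and has no value. Among named genes 2 values changed sign, both with library totals only: the log2 fold change of mt-Co1 became 0.13 and the log2 fold change of Eef1a1 became 0.00. Lhx6, Scap, Polr1a, Taf1d and Itga2b lost their call in 1 or more alternatives, and Rpl4 and mt-Co3, not called, passed in 1 or more. The cause was not tested. List medians that turned sign are given in the report, except that of adhesion genes (-0.05 without SAHA replicate 2) and of matrix genes (-0.12 with at least 10 counts in every library).

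The replicate numbers did not pair the libraries: those with the same number correlated at -0.004, -0.021 and -0.014 in their deviations from the group means. With the replicate block, genes higher in Smarcb1-RE were 5328 and genes higher in SAHA 5172, genes at least 2-fold higher in Smarcb1-RE 1583 and genes at least 2-fold higher in SAHA 1100, genes within 1.5-fold 5875, and the log2 fold change of Smarcb1 was 4.24. Depth limits the lowest genes: those of the largest differences with fewer than 10 reads in 1 group are given as bounds or counting intervals, and other fitted folds at few reads depend on the prior count.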
